A study of Mus musculus with 16 samples.

Results

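Ventricular gene expression was compared between mice fed the modified NIA formula (mNIA) and mice fed the parent NIA formula. The comparison took every library titled mNIA, 4 in number, and every library titled NIA, also 4, which makes 8 of the 16 libraries of a study on diet, cardiac ageing and fibrosis. The mice were male C57BL/6 animals that entered at 6 weeks of age, were assigned to a diet at random and ate it freely for 6 months. In the mNIA group the diet was an NIA primate formula whose sucrose and fat had been altered to equal those of a second primate formula, UW. The NIA group ate the primate formula without that change. The other 8 libraries, 4 from mice on UW and 4 from mice on a rodent chow, entered the model for its estimate of spread and are quoted only beside the genes described here. Each library came from 1 animal, from poly-A RNA of the lower part of the ventricles. All 12 cardiomyocyte marker genes passed the filter on low counts, and their summed level ran from 78160 to 115987 CPM (counts scaled to library size) in mNIA libraries and from 59011 to 135302 CPM in NIA libraries. No lung and airway marker, of 11 looked for, passed that filter.

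Dietary sugar and fat reach the heart muscle as glucose, fructose, fatty acids and lipoprotein lipid. A working ventricle burns mainly fatty acids in its mitochondria, and insulin shifts it toward glucose, partly by holding FoxO transcription factors out of the nucleus. Fibrosis of the ageing heart involves fibroblasts, which lay down collagens and matricellular proteins, and macrophages drawn in by chemokines. Whole tissue was sequenced, so fewer cells of a type and less RNA per cell cannot be told apart.

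The identity of the groups rests on the sample titles. The library codes are UC for the mNIA group, MNC for the NIA group, NC for UW and CC for chow, and these letters do not spell the diets. By the letters alone, MNC could be read as the modified formula and UC as UW, and nothing in the sources used here decides between these readings. Under such a reading the direction and the diets of every difference below would change.

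Libraries within each group were far apart. Total counts were 3977515, 3870426, 6487844 and 6544134 in the mNIA libraries 1 to 4, and 3143343, 63005361, 5735048 and 2278223 in the NIA libraries 1 to 4. NIA replicate 2 was thus the deepest library, and NIA replicate 4 was the shallowest. Genes whose transcripts hold a run of at least 25 A or T bases took 14.2%, 12.1%, 7.79% and 6.1% of the counts in mNIA libraries, and 24.1%, 9.28%, 11.8% and 26.6% in NIA libraries. The highest shares were those of NIA replicates 1 and 4, and the groups overlapped (two-sided exact permutation test, p = 0.2, where 0.0286 is the smallest p that 4 against 4 libraries allow). Sample quality weights, which limma estimates from how far a library lies from its own group, were 0.36 for mNIA replicate 2, 0.301 for NIA replicate 1 and 0.16 for NIA replicate 4. The other libraries of the comparison had weights between 1.12 and 2.19.

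Likeness between libraries did not follow diet. Over all tested genes, the level of mNIA replicate 2, taken relative to the mean of each gene, was most like that of NIA replicate 3 (Pearson r = 0.66 across genes), and NIA replicates 2 and 3 were both most like mNIA replicate 2. Replicates 1 of both diets were each other's nearest library (r = 0.39), whereas mNIA replicates 3 and 4 were nearest to each other (r = 0.47). Genes are not independent replicates, and these coefficients are given as a description with no test.

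**Figure D1:**
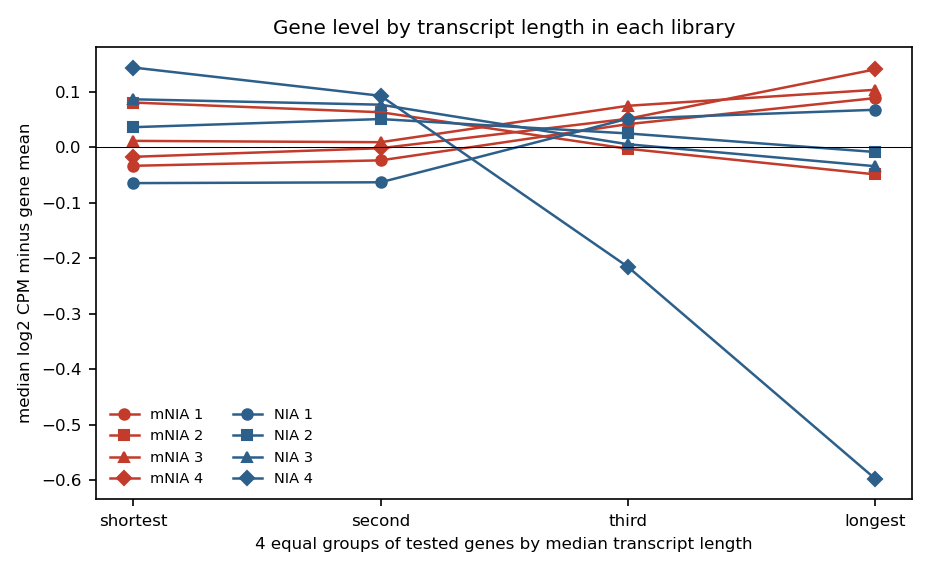
Median log2 CPM of the tested genes in 4 equal groups by transcript length, relative to the mean of the gene over all 16 libraries, for the mNIA (red) and NIA (blue) libraries. NIA replicate 4 falls to -0.60 in the longest group, where the other 7 libraries lie between -0.05 and 0.14.

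NIA replicate 4 also differed from the rest by transcript length, as the plot of level against length shows. Its median level was 0.14 on the log2 scale in the group of shortest transcripts and -0.60 in the longest. The median log2 fold change of mNIA minus NIA was -0.08 in the shortest group (41% of genes with a higher mean in mNIA) and 0.12 in the longest (65.1%). Without NIA replicate 4 these medians were -0.05 and 0.05. With an offset per library for transcript length in the model, 0 of 13260 genes passed and 1081 had an unadjusted p under 0.05, and the list medians under it are in the plot of list medians.

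No gene passed the threshold. In edgeR's quasi-likelihood test, with p-values adjusted by the Benjamini-Hochberg method over 13381 genes, 0 genes (0%) had an adjusted p under 0.05, and the smallest adjusted p was 0.549. At an unadjusted p under 0.05 there were 436 genes with a higher mean in mNIA (3.26% of those tested) and 756 with a lower one (5.65%). Every mNIA library lay above every NIA library for 196 genes (1.46%), and every mNIA library lay below every NIA library for 118 genes (0.882%). In both directions together these were 314 genes (2.35%). Labels placed at random on 4 against 4 libraries would separate a share of 0.0286. Groups without overlap are therefore given, here and below, as a description of single genes. The mean was higher in mNIA for 6571 genes (49.1%) and lower for 6810 (50.9%), and the median log2 fold change of all tested genes was -0.01. DESeq2's Wald test called 3 genes, Cmtr1 and the clone-named D830031N03Rik with higher means (0.015% of 13371 genes) and Cxcl1 with a lower one (0.00748%), each at an adjusted p of 0.0291. Counts were also simulated with a spread per gene that was estimated over all 16 libraries. On these, the edgeR test recovered 26.7% of genes set 1 log2 unit apart in this comparison and 83.5% of those set 2 units apart. The simulation gave no added spread to libraries that stood apart, such as NIA replicate 4. Recovery in the real comparison may therefore be lower.

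There were 4 chemokines among the genes with the smallest p on the lower side. The 12 lower genes so ranked were Cxcl1, Ptx3, Mfap5, S100a4, Gsta1, Kif6, Ccl9, Ccl6, Ccl12, Dnajc15, Ift20 and Sec61g. Each is described below with its values in every library, and each had an adjusted p of 0.549, so none is called changed.

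Cxcl1, a chemokine that draws neutrophils, lies on mm10 at chr5:90891245-90893116, plus strand. It had 0.847, 0.975, 0.468 and 0.61 CPM in mNIA libraries 1 to 4, against 1.26, 7.11, 7.36 and 9.96 CPM in NIA libraries 1 to 4. All 4 mNIA libraries were below all 4 NIA libraries, but NIA replicate 1 was close to them, at 3 counts against 3 or 4 counts in each mNIA library. The log2 fold change was -3.19 ± 0.68 (SE), with a 95% interval from -4.63 to -1.75. It was -3.37 without NIA replicates 1 and 4.

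Ptx3 encodes pentraxin 3, a soluble pattern recognition protein made at sites of inflammation, and lies at chr3:66219887-66225807, plus strand. Its level was 0, 0.244, 0.156 and 0 CPM in mNIA libraries, against 2.1, 1.75, 1.34 and 0.711 CPM in NIA libraries. The groups did not overlap, yet the counts behind these levels were few: 0, 1, 1 and 0 in mNIA libraries and 5, 129, 8 and 1 in NIA libraries. Summed over libraries, the share of counts in mNIA was 0.0497 of that in NIA, with an exact binomial interval from 0.00596 to 0.183 that covers counting error only and rests largely on NIA replicate 2. The fitted log2 fold change was -3.85 ± 0.84 (SE).

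Other chemokines that draw monocytes and other leukocytes were lower on average. Ccl12, one of the monocyte chemoattractants of the mouse, had 1.13, 0.244, 1.09 and 0 CPM in mNIA libraries and 1.68, 3.45, 3.51 and 2.13 CPM in NIA libraries, with no overlap between the groups and a log2 fold change of -2.30 ± 0.64. Its levels in the mNIA libraries and in NIA replicates 1 and 4 rest on few counts, so this lack of overlap says little. Ccl9 had 10.4, 15.8, 12.3 and 9.15 CPM in mNIA libraries and 14.7, 25.8, 21.8 and 37.7 CPM in NIA libraries, where NIA replicate 1 fell inside the mNIA range (log2 fold change -1.04 ± 0.28). Ccl6 had 5.36, 11, 10.3 and 6.87 CPM in mNIA libraries and 8.81, 20.8, 20.6 and 31.3 CPM in NIA libraries, again overlapping through NIA replicate 1 alone (-1.25 ± 0.34). Ccl6, Ccl9 and Ccl12 are members of a family of like sequences, and how the authors' counting shared reads between such genes is not given in the sources used here. Of the 18 chemokine genes tested, from a list of 30, 2 had a higher mean in mNIA and 16 a lower one, and 0 were called. Their median log2 fold change was -0.66, against -0.01 over all tested genes, and it lay between -1.08 and -0.50 over 22 other settings of the analysis. This list, like those below, was chosen with earlier results of these data known, and the settings share libraries. The medians are thus a description and not independent support. The level of the list in single libraries was -0.20, 0.23, -0.22 and -0.75 in mNIA and -0.26, 0.68, 0.40 and 0.59 in NIA, on a log2 scale relative to the mean of each gene. NIA replicate 1 was therefore as low as mNIA libraries, and mNIA replicate 2 was above it.

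Promoters of genes with non-overlapping groups are shown for Cxcl1 and Ptx3, which had the largest negative fold changes among the named genes, and for Acta1, described further on. All 3 were chosen after their values were seen. Each sequence runs from 250 bases before to 30 bases after the start of the gene, on its own strand, and comes from RefSeq on GRCm38.p6. Capitals mark matches to the NF-kB consensus in Cxcl1 and Ptx3 and to the CArG box in Acta1. The windows are chr5:90890995-90891274 (plus strand), chr3:66219637-66219916 (plus strand) and chr8:123894746-123895025 (minus strand).
Cxcl1: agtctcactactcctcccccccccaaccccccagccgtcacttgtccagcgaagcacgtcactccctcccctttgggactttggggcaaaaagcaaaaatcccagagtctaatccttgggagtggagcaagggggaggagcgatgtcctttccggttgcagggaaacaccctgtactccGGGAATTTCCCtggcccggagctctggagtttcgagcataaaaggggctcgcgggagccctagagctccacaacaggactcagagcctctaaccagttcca
Ptx3: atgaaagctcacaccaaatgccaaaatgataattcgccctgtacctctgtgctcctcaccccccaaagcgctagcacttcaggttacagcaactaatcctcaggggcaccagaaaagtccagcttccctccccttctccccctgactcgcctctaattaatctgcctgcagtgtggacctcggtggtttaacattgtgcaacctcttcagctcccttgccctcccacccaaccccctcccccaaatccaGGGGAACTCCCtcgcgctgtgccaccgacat
Acta1: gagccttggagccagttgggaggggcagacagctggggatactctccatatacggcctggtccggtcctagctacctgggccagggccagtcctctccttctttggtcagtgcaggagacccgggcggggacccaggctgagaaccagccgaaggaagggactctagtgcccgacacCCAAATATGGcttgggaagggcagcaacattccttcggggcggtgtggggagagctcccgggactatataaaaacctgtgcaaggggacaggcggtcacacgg
The NF-kB consensus, searched on both strands, was found in 7.94% of 32851 promoter windows of this length, and the CArG box in 1.56%. In Cxcl1 a pair of overlapping NF-kB matches began at base -71 from the start, and in Ptx3 an overlapping pair began at base -1. Ccl9 held 1 match, at -35, and Ccl6 and Ccl12 held none in this window. A match describes the letters only.

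**Figure D2:**
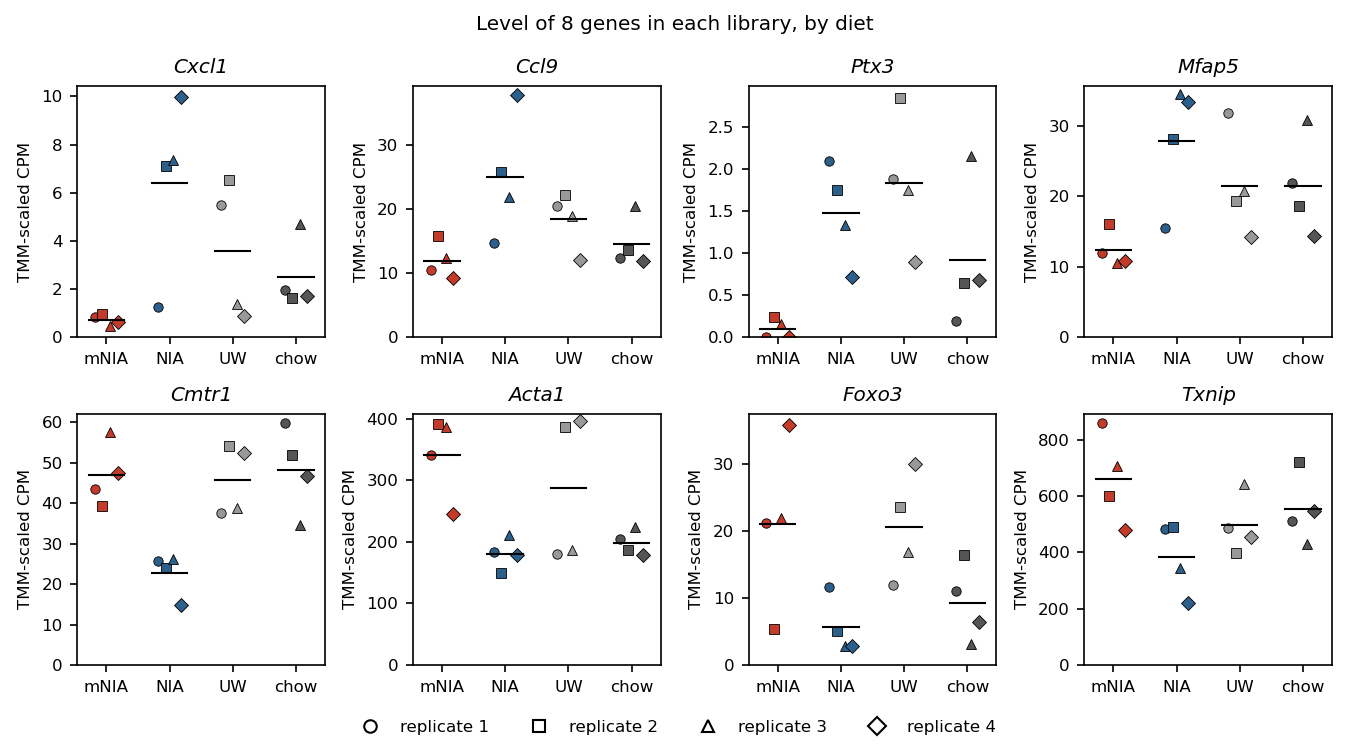
Level of 8 genes, in TMM-scaled CPM, in each library of the 4 diets, with the mean of each diet as a line. All mNIA libraries are below all NIA libraries for Cxcl1 and Ptx3, and above them for Cmtr1 and Acta1, and the other 4 genes overlap through 1 library, such as NIA replicate 1 for Ccl9 and Mfap5.

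Most markers of macrophages and most MHC class II genes, which serve antigen presentation, also had lower means. Beside a list median, the values in brackets are its lowest and highest when each library was left out in turn. Of 18 macrophage markers tested, 3 were higher on average in mNIA and 15 lower, with a median log2 fold change of -0.43 (-0.57 without mNIA replicate 2 to -0.17 without NIA replicate 2) and 0 calls, and it was -0.28 without mNIA replicate 4. Their summed level ran from 281 to 413 CPM in mNIA libraries and from 266 to 578 CPM in NIA libraries, so the ranges overlapped. Lyz2, the lysozyme of myeloid cells, had 76.5, 84.1, 66.7 and 56 CPM in mNIA libraries and 70.9, 144, 98.7 and 205 CPM in NIA libraries (log2 fold change -0.87 ± 0.33, and -0.58 without NIA replicate 4). C1qb, a chain of complement C1q that resident macrophages make, had 27.4, 34.1, 31.1 and 21.7 CPM in mNIA libraries and 19.3, 54.4, 49.5 and 59 CPM in NIA libraries (-0.68 ± 0.32). Of 9 MHC class II genes, 1 had a higher mean and 8 a lower one, with a median of -0.50 (-0.76 without NIA replicate 1 to -0.24 without NIA replicate 3). H2-Ab1, a chain of that complex, had 27.4, 28.3, 26.9 and 21.4 CPM in mNIA libraries and 20.6, 46.5, 64.4 and 50.5 CPM in NIA libraries (-0.82 ± 0.33). For each of these 3 genes NIA replicate 1 lay within or below the mNIA range, and the other NIA libraries lay above it. Genes of MHC class I processing and the immunoproteasome had 6 of 20 higher and a median of -0.12 (-0.40 without mNIA replicate 2 to 0.13 without NIA replicate 3). Whether the chemokine values move with macrophage content was not tested.

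Cytokine and immediate early genes also had lower means. The interleukin gene Il1b had 0, 0.244, 1.09 and 0.61 CPM in mNIA libraries and 0.419, 2.1, 3.18 and 2.84 CPM in NIA libraries (log2 fold change -1.95 ± 0.92). These levels rest on few counts in the mNIA libraries and in NIA replicates 1 and 4. Fos, a transcription factor gene switched on within minutes of a stimulus, had 1.98, 3.66, 7.65 and 5.19 CPM in mNIA libraries and 8.81, 18.3, 19.1 and 19.2 CPM in NIA libraries, and the groups did not overlap (-1.78 ± 0.64). Junb, its partner in the AP-1 complex, had 10.2, 18.5, 14.1 and 14.8 CPM in mNIA libraries and 11.7, 33.9, 43.5 and 16.4 CPM in NIA libraries, which overlapped (-0.94 ± 0.43, and -0.62 without NIA replicate 3). Of 23 immediate early genes, 18 had a lower mean, with a median of -0.31 (-0.66 without mNIA replicate 4 to -0.18 without NIA replicate 2). Nr4a3, an orphan nuclear receptor of the same early class, was on the other side at 1.69, 1.95, 6.09 and 26.1 CPM in mNIA libraries and 1.68, 2.93, 4.35 and 1.42 CPM in NIA libraries (1.67 ± 0.68), and the value was 0.24 without mNIA replicate 4. The wider list of inflammatory cytokine and NF-kB genes had 8 of 25 members higher and a median of -0.15 (-0.30 without mNIA replicate 2 to -0.01 without NIA replicate 3). Interferon response genes had 29 of 46 higher and a median of 0.07 (-0.15 without mNIA replicate 2 to 0.26 without NIA replicate 3), which lay between -0.32 and 0.26 over all other settings.

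Genes of insulin signalling and FoxO had mostly higher means in mNIA. Of the 25 tested, 21 were higher on average and 4 lower, with a median log2 fold change of 0.32 (0.22 without mNIA replicate 1 to 0.35 without mNIA replicate 2) and 0 calls. With the transcript length offset this median was 0.20. Foxo3, a FoxO transcription factor that insulin keeps inactive (chr10:42185786-42276743, minus strand), had 21.2, 5.36, 21.9 and 35.9 CPM in mNIA libraries and 11.7, 5.01, 2.84 and 2.84 CPM in NIA libraries. Only mNIA replicate 2 fell within the NIA range, and the log2 fold change was 1.98 ± 0.56. Sesn3, a sestrin and known FoxO target, had 4.23, 2.44, 4.37 and 4.58 CPM in mNIA libraries and 2.1, 1.45, 1.67 and 1.42 CPM in NIA libraries, with no overlap (1.29 ± 0.41). Irs2, which carries the insulin signal inward from the receptor, had 9.88, 5.12, 14.8 and 38.4 CPM in mNIA libraries and 5.03, 8.41, 11.9 and 2.84 CPM in NIA libraries, which overlapped (1.16 ± 0.51, and 0.38 without mNIA replicate 4). Gsk3b, the kinase that insulin restrains to allow glycogen synthesis, had 439, 200, 181 and 166 CPM in mNIA libraries and 819, 140, 231 and 908 CPM in NIA libraries (-1.09 ± 0.47), a difference that became -0.69 without NIA replicate 4 and 0.42 without NIA replicates 1 and 4. A transcript of Gsk3b holds a run of 30 A or T bases, and those 2 libraries had the highest share of counts on genes with such runs. Whether the run bears on the counts of Gsk3b was not tested.

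Sugar handling and lipid synthesis are nearest to what was altered in the diet. Khk, the enzyme that traps fructose in the cell, had 8.47, 10.5, 10.1 and 7.93 CPM in mNIA libraries and 13.8, 11.3, 12.9 and 15.6 CPM in NIA libraries. The groups did not overlap, and the log2 fold change was -0.50 ± 0.19. Txnip, which is induced by glucose and limits its uptake, had 860, 601, 705 and 480 CPM in mNIA libraries and 481, 489, 343 and 220 CPM in NIA libraries, with 3 of 4 mNIA libraries above the NIA range (0.79 ± 0.29). Over the 11 genes of fructose and sucrose handling, 5 were higher and the median was -0.15 (-0.13 without mNIA replicate 2 to 0.07 without NIA replicate 4). Glucose transport and glycolysis had 18 of 25 higher, with a median of 0.20 (0.12 without mNIA replicate 3 to 0.23 without NIA replicate 3). Pfkfb1, an isoform of the enzyme that sets fructose 2,6-bisphosphate, was an exception at 20, 18.3, 22.6 and 25.8 CPM in mNIA libraries and 26, 30.4, 25.9 and 37 CPM in NIA libraries, with no overlap (-0.44 ± 0.18). The glucose transporter Slc2a4 and hexokinase Hk2 had log2 fold changes of 0.13 (0.00 without NIA replicate 1 to 0.31 without NIA replicate 4) and 0.53, both with overlapping groups.

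Acaca and Acacb encode the acetyl-CoA carboxylases, which make the malonyl-CoA used in fatty acid synthesis and, at the mitochondrion, to restrain fatty acid entry. Acaca had 20.6, 14.1, 20 and 20 CPM in mNIA libraries and 10.5, 10.5, 12.9 and 0.711 CPM in NIA libraries, with no overlap (log2 fold change 0.96 ± 0.32, and 0.72 without NIA replicate 4). Acacb had 370, 202, 449 and 465 CPM in mNIA libraries and 271, 212, 258 and 134 CPM in NIA libraries, overlapping through mNIA replicate 2 (0.76 ± 0.30). Scd1, the stearoyl-CoA desaturase, did not overlap in the other direction, at 19.2, 16.3, 17.6 and 19.5 CPM in mNIA libraries and 21.8, 21.1, 20.1 and 19.9 CPM in NIA libraries, although the difference was small (-0.19 ± 0.17). Fatty acid synthesis and desaturation had 14 of 24 members higher, with a median of 0.14 (0.04 without NIA replicate 1 to 0.24 without NIA replicate 2). Fatty acid oxidation and PPAR targets had 20 of 36 higher, with a median of 0.04 (-0.12 without mNIA replicate 1 to 0.16 without mNIA replicate 2) that moved to 0.34 without NIA replicates 1 and 4. Pdk4, which shuts glucose carbon out of the citric acid cycle during fasting or fat feeding, had 947, 224, 663 and 421 CPM in mNIA libraries and 1156, 308, 185 and 530 CPM in NIA libraries, and a log2 fold change of 0.05 (interval -1.39 to 1.49) that was 1.19 without NIA replicates 1 and 4. With 1 library left out that value ran from -0.37 without mNIA replicate 1 to 0.64 without NIA replicate 1. Cholesterol synthesis and uptake had 13 of 22 higher, with a median of 0.03 (-0.02 without mNIA replicate 3 to 0.09 without mNIA replicate 4).

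Muscle genes were led by Acta1, the skeletal alpha-actin that the fetal and the stressed ventricle express (chr8:123891758-123894776, minus strand). Its level was 342, 392, 387 and 245 CPM in mNIA libraries and 184, 149, 212 and 179 CPM in NIA libraries. Each mNIA library was above each NIA library, the log2 fold change was 0.92 ± 0.27, and it was 0.92 without NIA replicates 1 and 4. The CArG box printed above, the element that binds serum response factor, began at -73. Of 10 natriuretic peptide and fetal stress genes, 8 had a higher mean, with a median of 0.26 (0.11 without mNIA replicate 1 to 0.37 without NIA replicate 1). With the transcript length offset this median was 0.07. The natriuretic peptide gene Nppb was on the lower side, at 161, 150, 139 and 54.9 CPM in mNIA libraries and 148, 145, 235 and 633 CPM in NIA libraries (-1.19 ± 0.43, and -0.49 without NIA replicate 4). Nppa had a log2 fold change of 0.57 ± 0.33, Myh6 one of 0.58 ± 0.48 and Myh7 one of 0.35 ± 0.41, and the groups overlapped for each. With 1 library left out, Nppa ran from 0.25 without mNIA replicate 2 to 0.80 without NIA replicate 3, Myh6 from 0.26 without NIA replicate 4 to 1.17 without NIA replicate 1 and Myh7 from 0.06 without NIA replicate 4 to 0.75 without NIA replicate 1. Myom2, a protein of the sarcomere's M-band, had 1679, 771, 1738 and 1912 CPM in mNIA libraries and 1095, 519, 797 and 347 CPM in NIA libraries (1.15 ± 0.40), where mNIA replicate 2 fell below NIA replicate 1. Sarcomere genes as a whole had 11 of 20 higher and a median of 0.15 (0.03 without NIA replicate 2 to 0.26 without mNIA replicate 2).

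Cardiac ion channels, which shape the action potential, were the list with the most uniform sign on the higher side, since 22 of 23 members had a higher mean in mNIA. The median log2 fold change was 0.35, and 0 members were called. Over the other settings it ran from 0.18 with the transcript length offset to 0.83 without the 4 libraries of low quality weight. Cacna1h, a T-type calcium channel, had 13.8, 16.6, 17 and 21.5 CPM in mNIA libraries and 14.3, 11.3, 12.9 and 4.27 CPM in NIA libraries (0.63 ± 0.26). Its groups overlapped by 1 library. The list level was 0.20, -0.58, 0.42 and 0.35 in mNIA libraries 1 to 4 and 0.22, -0.39, -0.42 and -0.25 in NIA libraries 1 to 4, so mNIA replicate 2 was the lowest of the 8 libraries and NIA replicate 1 stood with the mNIA group. Calcium cycling (9 of 16 higher, median 0.09, -0.12 without NIA replicate 2 to 0.37 without NIA replicate 1), the citric acid cycle (14 of 25 higher, median 0.08, -0.08 without mNIA replicate 1 to 0.17 without NIA replicate 4) and fatty acid oxidation were likewise low in mNIA replicate 2 and NIA replicates 2 and 3, as the map of list levels shows.

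**Figure D3:**
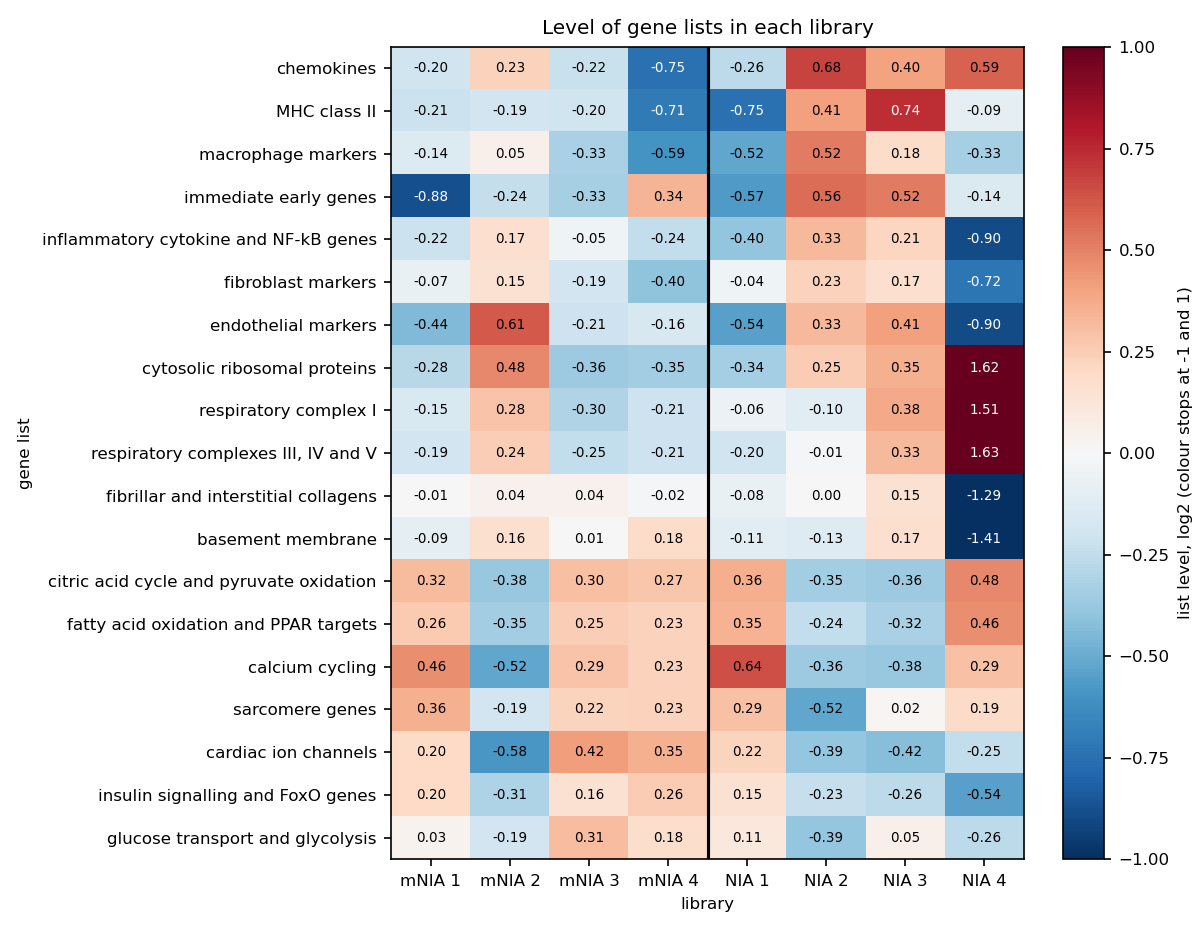
Level of 19 gene lists in the 8 libraries, as the median, over tested members, of how far log2 CPM lay from its average in all 16 libraries. The citric acid cycle, fatty acid oxidation, calcium cycling and ion channel lists are low in mNIA replicate 2 and NIA replicates 2 and 3, and NIA replicate 4 reaches 1.62 for cytosolic ribosomal proteins and -1.41 for basement membrane.

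Fibrosis was the stated subject of the study, and the means of the collagen genes Col1a1 and Col3a1 were close between the diets. Col1a1, a chain of type I collagen, averaged 107 ± 15.2 CPM in mNIA libraries and 110 ± 48 CPM in NIA libraries (SD, n = 4 each), with a log2 fold change of -0.05 (95% interval -0.70 to 0.59). Col3a1, the chain of type III collagen, averaged 223 ± 28.9 CPM in mNIA and 218 ± 46.4 CPM in NIA, with a log2 fold change of 0.03 (-0.52 to 0.59). Postn, the periostin of activated fibroblasts, averaged 42.3 ± 6.83 CPM in mNIA and 42.7 ± 9.91 CPM in NIA (-0.02, interval -0.47 to 0.43). These intervals do not show that the diets act alike, only that a difference beyond their bounds was not seen. Without each library in turn the value ran from -0.32 without NIA replicate 4 to 0.08 without NIA replicate 1 for Col1a1, from -0.11 without NIA replicate 4 to 0.10 without mNIA replicate 4 for Col3a1 and from -0.14 without mNIA replicate 2 to 0.15 without NIA replicate 3 for Postn. Fibrillar and interstitial collagens had 10 of 13 members higher and a median of 0.13 (-0.03 without NIA replicate 4 to 0.33 without NIA replicate 3). For 1 of the 13, every mNIA library lay above every NIA library, as for 1.46% of all tested genes. Basement membrane genes had 17 of 22 higher and a median of 0.31 (0.13 without NIA replicate 4 to 0.50 without NIA replicate 3). Tgfb1 and Ctgf, a growth factor of fibrosis and a matricellular protein it induces, had log2 fold changes of -0.06 (-0.32 without mNIA replicate 2 to 0.17 without NIA replicate 3) and -0.20 (-0.37 without mNIA replicate 3 to -0.08 without NIA replicate 3).

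Some other genes of fibroblasts and injury, named here by their small p, had lower means. Mfap5, a microfibril protein of adventitial fibroblasts (chr6:122513584-122529288, plus strand), had 11.9, 16.1, 10.6 and 10.8 CPM in mNIA libraries and 15.5, 28.1, 34.5 and 33.4 CPM in NIA libraries, with overlap only between mNIA replicate 2 and NIA replicate 1 (log2 fold change -1.19 ± 0.29). S100a4, a calcium-binding protein of motile fibroblasts and leukocytes, had 2.82, 5.36, 3.43 and 2.14 CPM in mNIA libraries and 5.87, 8.32, 10.2 and 24.9 CPM in NIA libraries, with no overlap (-1.74 ± 0.44). The matricellular Cyr61 had 45.2, 54.1, 57.1 and 42.6 CPM in mNIA libraries and 73.8, 60.5, 71.3 and 65.4 CPM in NIA libraries, also without overlap (-0.44 ± 0.20). Tnc, the tenascin of injured matrix, was separated too but rare, at 0.564, 1.46, 1.25 and 1.22 CPM in mNIA libraries and 3.77, 1.68, 2.84 and 2.13 CPM in NIA libraries (-1.06 ± 0.53). Of 22 matricellular and injury matrix genes, 8 were higher and 14 lower, with a median of -0.15 (-0.24 without NIA replicate 1 to -0.03 without NIA replicate 3). Fibroblast markers had 5 of 14 higher and a median of -0.16 (-0.31 without mNIA replicate 2 to -0.02 without NIA replicate 2), and their summed level ran from 2135 to 2688 CPM in mNIA libraries and from 2052 to 2659 CPM in NIA libraries. For 1 of the 14, every mNIA library lay above every NIA library, against 1.46% of all tested genes. The reverse held for 0 of the 14, against 0.882%.

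Cytosolic ribosomal and respiratory chain genes had the largest list medians on the lower side, and leaving out NIA replicate 4 moved them by over 1.5 times. Of 75 cytosolic ribosomal protein genes, 1 had a higher mean in mNIA and 74 a lower one, with a median log2 fold change of -0.73 that was -0.20 without NIA replicate 4. Rpl35, a protein of the large subunit, had 286, 332, 186 and 159 CPM in mNIA libraries and 351, 255, 328 and 1479 CPM in NIA libraries. Respiratory complex I had 4 of 37 higher and a median of -0.68, which was -0.21 without that library, and complexes III, IV and V had 3 of 39 higher and a median of -0.71, which was -0.17. Cox7a1, a muscle form of a cytochrome oxidase subunit, had 585, 748, 368 and 432 CPM in mNIA libraries and 809, 579, 761 and 3613 CPM in NIA libraries. Mitochondrial ribosomal proteins had 5 of 75 higher and a median of -0.45, which was -0.06 without it. In the fit without 4 libraries of low quality weight the medians were -0.61 for cytosolic ribosomal proteins, -0.40 for complex I, -0.41 for complexes III to V and -0.07 for mitochondrial ribosomal proteins. In limma-voom with quality weights they were -0.56, -0.38, -0.38 and -0.06 in the same order. For none of these lists did any member separate the groups. Ribosomal protein genes have many pseudogene copies, so their counts are uncertain as well.

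Among the remaining genes of the lower group, Dnajc15, Ift20 and Sec61g moved by over 1.5 times without NIA replicate 4, and Gsta1 and Kif6 did not. Dnajc15, a co-chaperone of the inner mitochondrial membrane, had 91.1, 92.4, 68.4 and 54.6 CPM in mNIA libraries and 146, 85, 96.6 and 741 CPM in NIA libraries, and its log2 fold change of -1.79 was -0.51 without NIA replicate 4. Ift20, of intraflagellar transport, has a transcript with a run of at least 25 A or T bases. It did not overlap, at 38.9, 39.7, 27.5 and 29.6 CPM in mNIA libraries and 60.8, 41.7, 48.4 and 133 CPM in NIA libraries, and its log2 fold change of -1.03 was -0.57 without NIA replicate 4. Sec61g, a subunit of the protein channel of the endoplasmic reticulum, had 31.3, 55.8, 31.1 and 27 CPM in mNIA libraries and 41.5, 59.3, 62.6 and 248 CPM in NIA libraries (-1.47, and -0.61 without it). Gsta1, a glutathione transferase with close paralogs, had 1.69, 2.19, 2.81 and 1.98 CPM in mNIA libraries and 5.03, 3.76, 5.86 and 11.4 CPM in NIA libraries, with no overlap (-1.40 ± 0.37, and -1.10 without it). Kif6, a kinesin gene, had 1.98, 2.19, 2.65 and 2.44 CPM in mNIA libraries and 6.29, 4.22, 5.02 and 5.69 CPM in NIA libraries, with no overlap and NIA replicate 4 inside its own group (-1.11 ± 0.30, and -1.08 without it). Targets of NRF2 and glutathione genes had 8 of 32 higher and a median of -0.17 (-0.30 without mNIA replicate 2 to -0.12 without NIA replicate 4).

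On the higher side the gene with the smallest p was Cmtr1, which methylates the first nucleotide next to the mRNA cap (chr17:29660595-29705980, plus strand). It had 43.5, 39.2, 57.6 and 47.6 CPM in mNIA libraries and 25.6, 24.1, 26.1 and 14.9 CPM in NIA libraries. The lowest mNIA library was above the highest NIA library, and the log2 fold change was 1.03 ± 0.22 (95% interval 0.56 to 1.49), or 0.91 without NIA replicates 1 and 4. D830031N03Rik, named here only because DESeq2 called it, had 16.1, 11.7, 12 and 20.4 CPM in mNIA libraries and 7.13, 4.88, 4.35 and 0 CPM in NIA libraries. The other genes of the 12 with the smallest p on this side were Zfp526, Thada, L3mbtl2, Armcx4, Foxo3, Best3, Abhd2, Ccnd2, Zfp687, Rapgef5 and Lmln, with log2 fold changes between 0.81 for L3mbtl2 and 1.98 for Foxo3. Ccnd2, the cyclin D2 that drives entry into the cell cycle, had 219, 119, 256 and 214 CPM in mNIA libraries and 135, 102, 109 and 70.4 CPM in NIA libraries, overlapping through mNIA replicate 2 (0.95 ± 0.28). Zfp526, a zinc finger gene, had 6.49, 5.61, 6.4 and 6.41 CPM in mNIA libraries and 2.94, 3.47, 3.18 and 1.42 CPM in NIA libraries, with no overlap (1.03 ± 0.25). Thada, L3mbtl2, Best3, Abhd2, Rapgef5 and Lmln were also without overlap, while Armcx4 and Zfp687 overlapped. Abhd2 too has a transcript with a run of at least 25 A or T bases.

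**Figure D4:**
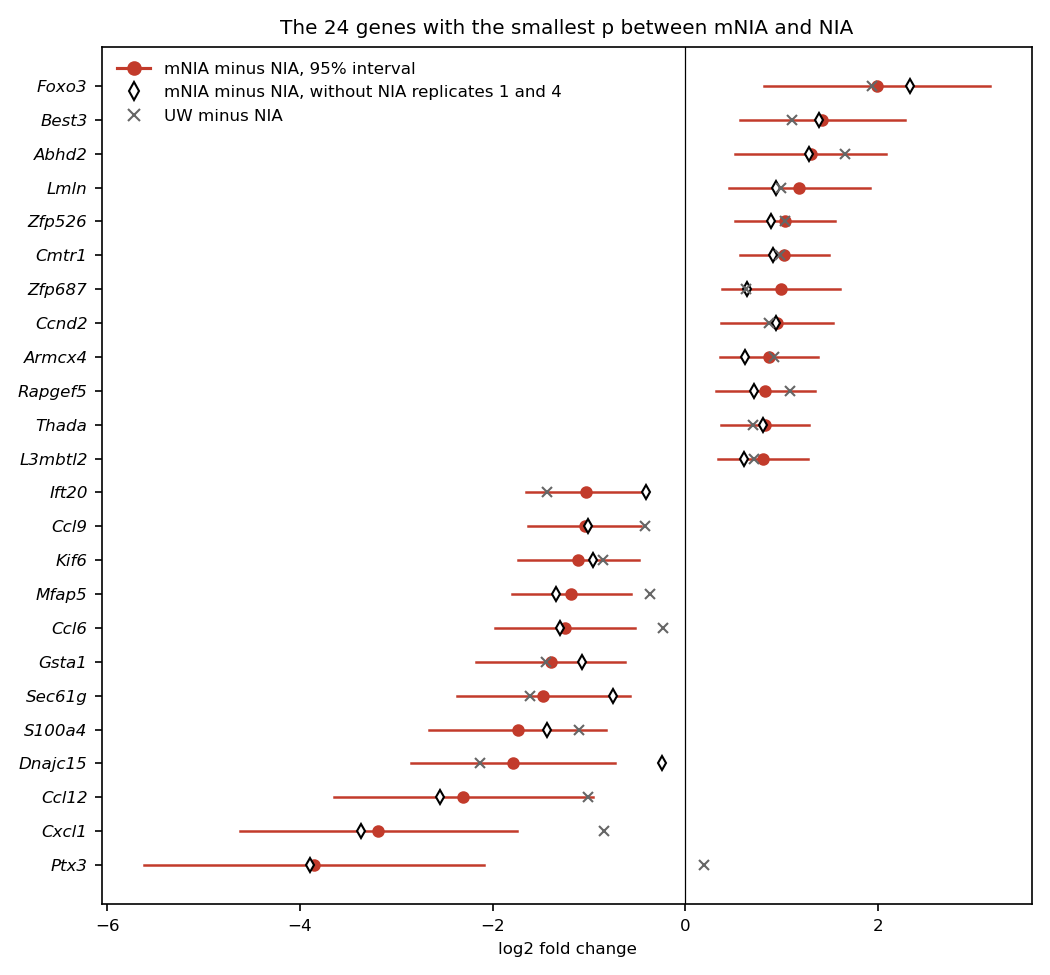
Log2 fold change of mNIA minus NIA with its 95% interval for the 12 higher and 12 lower genes with the smallest p, with the value without NIA replicates 1 and 4 (open diamonds) and the UW minus NIA value (crosses), which shares the NIA libraries. Dnajc15 moves from -1.79 to -0.25 without those libraries, whereas Cxcl1 and Cmtr1 stay at -3.37 and 0.91.

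The UW formula has the sucrose and fat that mNIA was made to match, so its values are set beside these. Both contrasts use the same NIA libraries, so they are not independent, and no measure of likeness between them is given. For Cmtr1 the mNIA minus NIA value was 1.03 and the UW minus NIA value 0.99, and for Foxo3 they were 1.98 and 1.94. Cmtr1 averaged 47 ± 7.86 CPM in mNIA, 45.8 ± 8.71 CPM in UW and 22.7 ± 5.23 CPM in NIA, and it had 48.4 ± 10.6 CPM in chow (SD, n = 4 each). NIA thus had the lowest mean of the 4 diets for this gene. Foxo3 averaged 21.1 ± 12.5 CPM in mNIA, 20.7 ± 7.93 CPM in UW, 5.61 ± 4.21 CPM in NIA and 9.31 ± 5.83 CPM in chow. Khk had the values -0.50 for mNIA minus NIA and -0.50 for UW minus NIA, and Acaca had 0.96 and 1.16. The genes of inflammation described above had, in the same order of contrasts, -3.85 and 0.19 for Ptx3, -3.19 and -0.85 for Cxcl1, -2.30 and -1.01 for Ccl12, -1.04 and -0.42 for Ccl9 and -1.25 and -0.23 for Ccl6. Il1b had -1.95 and -0.83, Fos -1.78 and -0.04, Junb -0.94 and -0.05, Lyz2 -0.87 and -0.07, C1qb -0.68 and 0.10 and H2-Ab1 -0.82 and -0.21. Ptx3 averaged 0.1 ± 0.121 CPM in mNIA, 1.84 ± 0.803 CPM in UW, 1.47 ± 0.596 CPM in NIA and 0.918 ± 0.856 CPM in chow. Most of these genes were picked for a small p in mNIA minus NIA, which by itself favours larger values in that contrast. The difference between the 2 contrasts was not tested.

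Markers of other cells were compared as lists. Endothelial markers had 11 of 18 higher and a median of 0.09 (-0.20 without mNIA replicate 2 to 0.31 without NIA replicate 3), and their level was high in mNIA replicate 2 (0.61) and low in NIA replicate 4 (-0.90). All 8 tested epicardial and mesothelial markers had a lower mean in mNIA, with a median of -0.47 (-0.88 without mNIA replicate 2 to -0.18 without NIA replicate 2). Erythrocyte and platelet markers had 4 of 16 higher and a median of -0.45 (-0.77 without mNIA replicate 2 to -0.19 without NIA replicate 2), and their summed level ran from 2109 to 4967 CPM in mNIA libraries and from 2647 to 7729 CPM in NIA libraries. The beta-globin gene Hbb-bs, which has a near-identical copy, had 347, 763, 238 and 366 CPM in mNIA libraries and 362, 1317, 581 and 1476 CPM in NIA libraries (-1.12 ± 0.48). Of 4 granulocyte and mast cell markers tested, the summed level was 26 to 55.3 CPM in mNIA libraries and 17.1 to 59.9 CPM in NIA libraries. The part of blood and of epicardium in the inflammatory values was not tested.

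**Figure D5:**
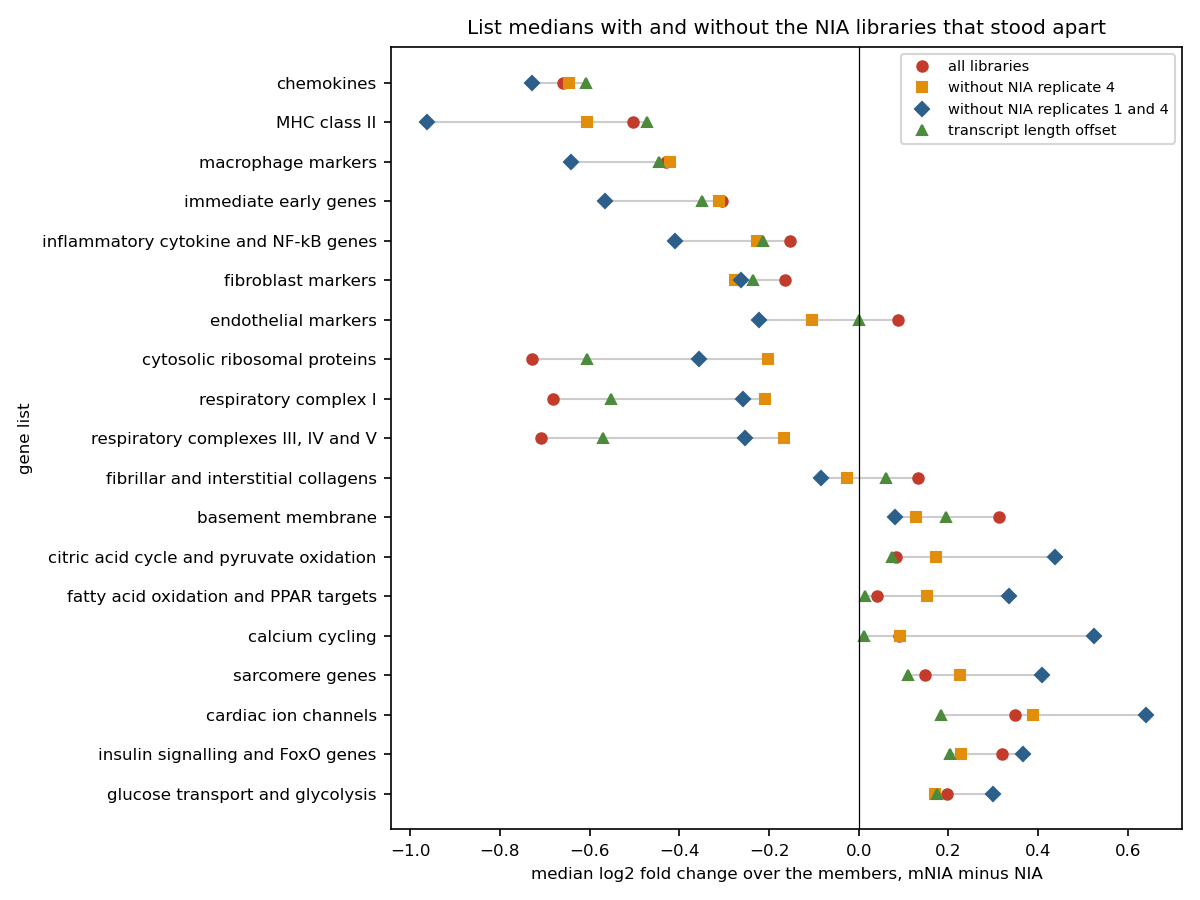
Median log2 fold change of mNIA minus NIA over the tested members of 19 gene lists, with all libraries, without NIA replicate 4, without NIA replicates 1 and 4, and with an offset for transcript length. Chemokines stay between -0.73 and -0.61, while cytosolic ribosomal proteins move from -0.73 to -0.20 without NIA replicate 4 and endothelial markers change sign.

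Leaving out the libraries with low quality weights changed the number of calls but has to be read with care, since those weights fall for libraries far from their own group and their removal narrows the spread by construction. Without mNIA replicate 2, NIA replicates 1 and 4 and chow replicate 3, 1928 genes (14% of 13781) passed with a higher mean in mNIA and 1256 (9.11%) with a lower one. With all 16 libraries weighted in limma-voom, 1135 (8.48%) passed with a higher mean and 866 (6.47%) with a lower one. Both lists shared 1728 genes, which are 54.3% of the first and 86.4% of the second. Of the 3172 genes of the first list that were tested with all libraries, 2881 had the same sign there, and 77 (2.43%) had groups that did not overlap over all 8 libraries, against 314 (2.35%) of all tested genes. In the fit without those libraries, 14 of 23 ion channel genes, 12 of 25 insulin and FoxO genes and 13 of 25 citric acid cycle genes passed with a higher mean, and 9 of 18 chemokine genes and 51 of 75 cytosolic ribosomal protein genes with a lower one. Without NIA replicates 1 and 4 alone, 0 genes passed in edgeR and 1386 had an unadjusted p under 0.05.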

How the data were processed

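Per the labels' protocols, RNA of the lower ventricles of 1 animal per library was poly-A selected with a strand-specific Kapa kit and read as single 75-base reads on a NextSeq, from samples with an RNA integrity number over 7. The authors made and deposited expected counts, which are estimated counts per gene, for 17737 genes in 16 libraries. BWA, DESeq2 and mm10 are named, per the submitters' processing notes; the counting tool, gene models and versions are not given in the sources used here. In each library 13% to 52.4% of values were not whole, so all were rounded.

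Genes were kept by filterByExpr with diet as group (13381 left), scaled by TMM and tested with edgeR 4.0.16 (R 4.3.3) by the quasi-likelihood F test, 1 mean per diet over all 16 libraries and no covariate, with Benjamini-Hochberg adjustment and a threshold of 0.05. SE is the size of the log2 fold change divided by the square root of F. CPM are TMM-scaled, and log2 CPM uses a prior count of 2. Library measures were compared by exact permutation tests. DESeq2 1.42.0 and limma 3.58.1 (voom with quality weights) were alternatives, with other scalings, filters, a replicate block, thinning, a length offset and removal of libraries. Transcript lengths and A or T runs came from GENCODE vM21 for 98.4% of genes. Fits were tested on simulated data. Intervals on counts cover counting error only.

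Named genes are the 12 higher and 12 lower genes with the smallest p (mean of at least 1 CPM in either diet, no clone names), 30 fixed genes, and, per list, the 4 members ranked first by p. Members and lists were chosen with earlier results of these data known. Titles number replicates 1 to 4 in each diet. A list level is the median deviation of its members, in log2 CPM, from their averages in all 16 libraries. Values of 1 gene are not reported here.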

Additional observations from a re-analysis of the deposited data

Results flagged for a closer look

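In each group of 4 libraries, the highest or lowest value was flagged when its gap to the next value took up nearly the whole range, by Dixon's 95% critical value. Of 296 groups tested, over genes, library measures and list levels, 31 were flagged, and chance flags about 1 in 20. Of the 31, 14 were values of mNIA replicate 2, 9 of NIA replicate 4, 3 of mNIA replicate 4, 2 of NIA replicate 1, and 1 each of mNIA replicates 1 and 3 and NIA replicate 2.

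mNIA replicate 2 stood apart from the other mNIA libraries for Zfp526 (5.61 CPM), Sec61g (55.8 CPM), Acaca (14.1 CPM), Nppa (207 CPM), Hk2 (203 CPM), Sesn3 (2.44 CPM) and Rps21 (190 CPM). It also did so for the list levels of fatty acid synthesis (-0.23), fatty acid oxidation (-0.35), the citric acid cycle (-0.38), respiratory complexes III, IV and V (0.24), cytosolic ribosomal proteins (0.48), autophagy and lysosome genes (-0.25) and the unfolded protein response (-0.22).

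NIA replicate 4 stood apart from the other NIA libraries for Dnajc15 (741 CPM), Sec61g (248 CPM), Slc2a4 (476 CPM), Ndufb4 (1051 CPM), Cox7a1 (3613 CPM), Rpl35 (1479 CPM) and Col1a2 (46.9 CPM), and for the levels of the fibrillar collagen list (-1.29) and the TGF-beta list (-0.62). NIA replicate 1 stood apart for Ppargc1a (223 CPM) and Fos (8.81 CPM), and NIA replicate 2 for its total of 63005361 counts.

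Among the other mNIA libraries, replicate 4 stood apart for Hspa1a (24.3 CPM), which has a near-identical copy, for the MHC class II level (-0.71) and for the glucocorticoid response level (0.41). Replicate 1 stood apart for Gsk3b (439 CPM) and replicate 3 for the level of cholesterol synthesis genes (0.24).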

How the results depend on the processing

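The count of calls was 0 in edgeR under every other setting tried with all 8 libraries, and 0 to 0 when each mNIA or NIA library was left out in turn. Genes with an unadjusted p under 0.05 numbered 1192 in the fit as reported, 530 with the 8 libraries fitted alone, 517 without NIA replicate 4, 542 without mNIA replicate 4, 629 without mNIA replicate 3, 1981 without mNIA replicate 2 and 2114 without NIA replicate 1. Other tests and fewer libraries gave calls. DESeq2 called 3 genes (2 higher, 1 lower). Limma-voom with quality weights called 2001 (1135 higher, 866 lower), and removal of 4 libraries of low weight gave 3184 (1928 higher, 1256 lower). Both of the last lower the weight of libraries that lie far from their own group. All 24 genes with the smallest p kept their sign in every alternative in which they were tested, and 28 of 56 list medians did. The 24 genes were picked by p from libraries that the alternatives share, so their kept signs are no independent support. No scaling moved the median of all genes by over 0.1.

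With the replicate number as a block, 0 genes were called and 830 had an unadjusted p under 0.05. Same-numbered mNIA and NIA libraries deviated together with r = 0.49, 0.41, -0.29 and -0.15, and only mNIA replicate 1 was most like the NIA library of its own number. These values show no pairing by number, and with so few libraries they cannot exclude it. In NIA replicate 4, with 2278223 counts, 1 count is a large step for genes such as Ptx3.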
